A study of Mus musculus with 6 samples.

Results

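The genes described here encode 10 enzymes or enzyme subunits of the defense against peroxides and superoxide. They were chosen by symbol from a list of antioxidant enzymes: Prdx2, Cat, Gpx1, Prdx1, Prdx3, Gpx4, Sod1, Sod2, Txnrd1 and Gclm. All 10 are among the 13007 genes of the deposited table, and all 10 passed the filter on low counts. Prdx2, Cat and Gpx1 form the red cell group, the enzymes known for detoxifying peroxide in erythrocytes, and the remaining 7 form the general group.

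RNA of mouse bone marrow cells was sequenced to compare acute erythroid leukemia (AEL) with normal erythroid precursors (NC), with 3 libraries in each group. AEL cells are labelled Trp53-/-ERG-expressing and were sorted as GFP+ after transduction with ERG, an ETS family factor, in a vector that also expresses GFP. NC cells are labelled WT and were stained for CD71 and Ter119 and sorted. Sorting markers thus differed between AEL and NC, and leukemia and sort cannot be told apart. Every library carries the strain label C57BL/6 and a source label that names SETBP1 and ASXL1 mutations, which for NC goes against WT. Ages are not given, and the labels call the libraries biological replicates without saying whether each came from its own animal, so the p-values speak to the spread among these libraries, which may be technical.

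Library totals ran from 8171676 to 9945330 counts. Trp53 stood at 976 to 1172 CPM (counts scaled to library size) in the libraries labelled Trp53-/- and at 162 to 177 CPM in NC, and gene counts do not show which exons were read, so they do not check that label. Erg was at 557 to 790 CPM in AEL versus 4.39 to 8.53 CPM in NC. AEL libraries varied more among themselves, with a biological coefficient of variation of 44.3% against 9.02% in NC. Of all 12427 genes tested, 29.0% were lower in AEL and 23.9% higher by the edgeR test described below. Of 12 erythroid markers 9 were lower in AEL and 0 higher. Their summed level was 3780 to 7546 CPM in AEL versus 24841 to 30902 CPM in NC. Of these sums Hbb-bs alone made up 301 to 1922 CPM in AEL and 13677 to 17525 CPM in NC. Erythroid transcripts were thus present in both groups. Of 12 neutrophil markers 12 were lower (summed 19.9 to 1200 CPM against 8174 to 9623), and of 12 monocyte and macrophage markers 11 were lower (10.9 to 86.5 CPM against 3296 to 3903), with Timd4 at 0 in AEL. B cell markers summed to 1.58 to 2.56 CPM in AEL versus 217 to 260 CPM in NC, those of T and NK cells to 0.450 to 1.41 versus 47.7 to 56.4, and those of stroma and endothelium to 4.30 to 9.98 versus 69.8 to 84.5. Of 7 megakaryocyte markers 3 were higher and 3 lower, among them Ppbp at 0 in AEL, and they summed to 173 to 445 CPM against 125 to 149. Of 7 mast cell, basophil and eosinophil markers 1 was higher and 3 were lower, with Epx at 0 in AEL. The higher one was Gata2, a factor also expressed in blood progenitors, whose 382, 430 and 569 CPM in AEL made up nearly all of that list's 383 to 588 CPM, against 48.0 to 60.4 in NC. The part of these other cells in the results below was not tested. In bulk RNA, fewer cells of a type and less RNA per cell cannot be told apart.

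As background, superoxide dismutases turn superoxide into hydrogen peroxide, which catalase, glutathione peroxidases and peroxiredoxins then reduce. Catalase needs no reductant, whereas glutathione peroxidases draw on glutathione and peroxiredoxins on thioredoxin, both of which are recharged with NADPH. Red cells carry oxygen on heme iron and so form superoxide steadily. Mice lacking Prdx2 become anemic, and many of the general enzymes are targets of NRF2, a factor that binds antioxidant response elements in promoters.

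Promoter stretches are shown for the members that hold the core of that element, to set their letters beside what their counts did. RefSeq windows (GRCm38.p6) from 250 bases before to 50 after a start site were found for all 10 genes, 15 windows in all. The core, TGACNNNGC on either strand, was found in 4 of these 15 windows, each of another gene, and in 12.4% of all 32851 promoter windows. Txnrd1 has 3 windows and Gpx4 has 4, so these genes have more chances to hold a motif. Each stretch below is 5′ to 3′ on the gene's own strand (the plus strand for all 4), lies outside annotated exons, and has the core in capitals, here always in the reverse orientation.
Prdx1 (chr4:116685441-116685499): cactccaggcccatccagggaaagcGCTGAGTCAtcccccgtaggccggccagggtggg
Gclm (chr3:122245398-122245456): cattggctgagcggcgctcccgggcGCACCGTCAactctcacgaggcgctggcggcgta
Sod1 (chr16:90220681-90220739): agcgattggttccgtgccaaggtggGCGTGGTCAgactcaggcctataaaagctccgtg
Txnrd1 (chr10:82859089-82859147): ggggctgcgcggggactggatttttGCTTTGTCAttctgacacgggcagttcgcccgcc

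The Prdx1 core lies 133 bases before the start site, that of Gclm 134, that of Sod1 56 and that of Txnrd1 92, the last in 1 of the 3 Txnrd1 windows. The Sod1 core overlaps a CACC box (CCNCNCCC, either strand), the kind of site that KLF factors bind. A CACC box was in 12 of the 15 windows, at least 1 for each member, and 49.5% of all windows hold one. The GATA site AGATAA and the FOXO site GTAAACA were in 0 member windows (11.2% and 3.65% of all windows), and the ETS core CCGGAA was in that of Sod2 (14.9% of all windows). Of the 4 genes with the core, Prdx1 fell in AEL, and Gclm, Sod1 and Txnrd1 did not pass the test.

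Prdx2 and Gpx1, the 2 most abundant of these transcripts in NC, fell 3.55-fold and 4.52-fold in AEL, while Cat, the remaining red cell enzyme, stayed near its NC level. In the general group Prdx1 and Gpx4 fell 1.96-fold and 1.77-fold, Sod2 rose 1.51-fold, and Prdx3, Sod1, Txnrd1 and Gclm did not pass. Thus 4 members were called lower and 1 higher by edgeR's quasi-likelihood test with Benjamini-Hochberg adjustment at 0.05, where 29.0% of the 12427 genes tested were lower and 23.9% higher. In 5 members the AEL and NC libraries did not overlap, which held for 66.0% of all genes tested. The members' median log2 fold change was -0.43, that of the red cell group -1.83 and that of the general group -0.29, against -0.05 over all genes tested. The members were few and were picked with earlier results of these data known, so their counts and medians are descriptions.

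**Figure D1:**
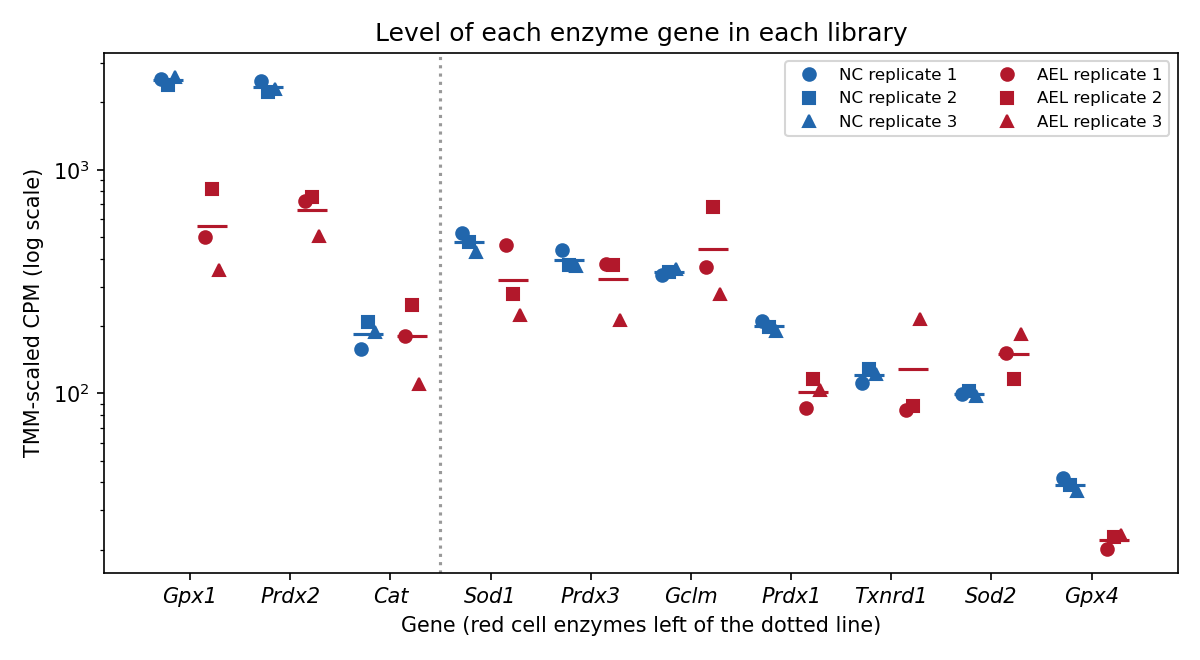
Level of each gene in each library as TMM-scaled CPM on a log axis. Points are libraries (shape gives the replicate), short lines are group means, and red cell enzymes stand left of the dotted line. Gpx1 and Prdx2 reach at most 821 CPM in AEL, and at least 2229 CPM in NC, while Cat overlaps between the groups.

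Among the red cell enzymes, Prdx2 encodes peroxiredoxin 2, an abundant cytosolic peroxide reductase of erythrocytes (chromosome 8, 84969587 to 84974834). It stood at 723, 752 and 505 CPM in AEL replicates 1 to 3 and at 2507, 2229 and 2289 CPM in NC replicates 1 to 3. Every AEL library was below every NC library, and the log2 fold change of AEL over NC was -1.83 (SE 0.18, edgeR adjusted p = 0.000533).

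Gpx1 encodes glutathione peroxidase 1, a selenoprotein that reduces hydrogen peroxide with glutathione (chromosome 9, 108338903 to 108340343). Its levels were 499, 821 and 357 CPM in AEL versus 2557, 2405 and 2610 CPM in NC. All AEL libraries lay below all NC libraries, and AEL replicate 2 stood above the other AEL libraries. The log2 fold change was -2.17 (SE 0.30, edgeR adjusted p = 0.00161), the lowest of the 10 members, and 15.1% of all genes tested had the same or a lower value. The 631 other tested genes of chromosome 9 had a median of -0.38, and what part of the Gpx1 difference goes with its chromosome was not tested.

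Cat encodes catalase, the peroxisomal and red cell enzyme that splits hydrogen peroxide (chromosome 2, 103453849 to 103485160). It was at 181, 250 and 111 CPM in AEL, compared with 158, 209 and 188 CPM in NC. The AEL libraries reached above and below the whole NC range, and the change of -0.04 in log2 (SE 0.29, edgeR adjusted p = 0.92) turned sign with the scaling and with single libraries left out. Its standard error is wide enough that a modest change in either direction was not detectable with these libraries.

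Cat therefore made up more of the peroxide-removing transcripts in AEL. Its counts were 0.250, 0.332 and 0.219 of those of Prdx2 in AEL replicates 1 to 3, against 0.0632, 0.0937 and 0.0821 in NC. Relative to Gpx1 the ratios were 0.362, 0.304 and 0.310 in AEL and 0.0620, 0.0869 and 0.0720 in NC. Scaling between libraries does not touch such ratios, and they did not overlap between the groups; they were chosen after the values were seen and carry no test.

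**Figure D2:**
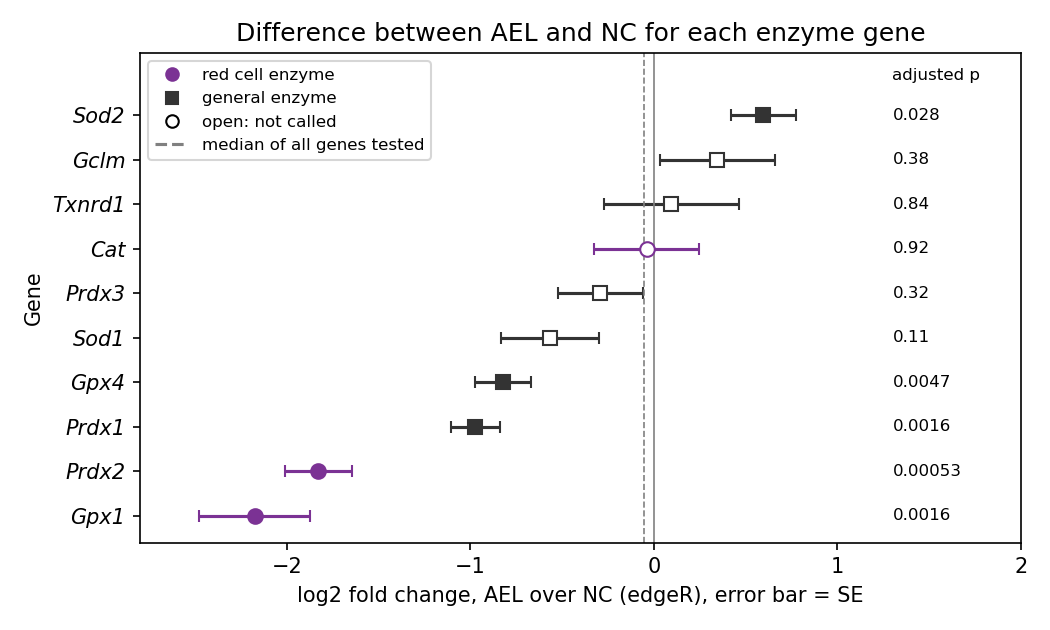
Log2 fold change of AEL over NC for each gene, with its standard error and edgeR adjusted p at the right. Filled symbols passed at 0.05. Gpx1 and Prdx2 stand lowest at -2.17 and -1.83, Sod2 highest at 0.60, and the dashed line marks the median of all genes tested at -0.05.

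As shares of all counts, the red cell group stood apart between AEL and NC and the general group did not. Prdx2, Gpx1 and Cat together took 0.146%, 0.194% and 0.107% of counts in AEL and 0.495%, 0.453% and 0.470% in NC. The 7 general genes together took 0.161%, 0.178% and 0.136% in AEL and 0.167%, 0.156% and 0.149% in NC, so these shares overlapped between the groups. These shares are not TMM-scaled. With that scaling the general genes summed to 1550, 1677 and 1240 CPM in AEL and 1757, 1665 and 1607 CPM in NC. AEL replicates 1 and 3 then lay below the NC range and replicate 2 within it. Sums hide single genes. Of the red cell enzymes only Cat overlapped between AEL and NC. Of the general enzymes Prdx1 and Gpx4, lower in AEL, and Sod2, higher in AEL, did not overlap.

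**Figure D3:**
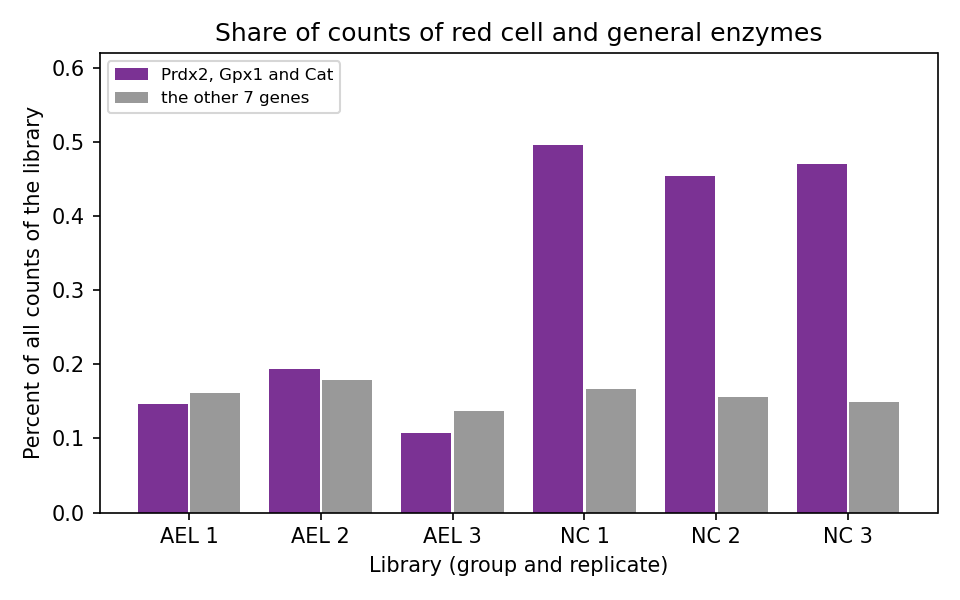
Percent of each library's counts from the red cell enzymes Prdx2, Gpx1 and Cat (purple) and from the other 7 genes (grey), by library. The purple bars run from 0.107% to 0.194% in AEL and from 0.453% to 0.495% in NC, while the grey bars stay between 0.136% and 0.178%.

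The other peroxiredoxins of the list divided. Prdx1, a cytosolic enzyme closely related to peroxiredoxin 2 (chromosome 4, 116685544 to 116700822), was at 86.5, 115 and 103 CPM in AEL, compared with 211, 197 and 190 CPM in NC. The groups did not overlap, and the log2 fold change was -0.97 (SE 0.13, edgeR adjusted p = 0.00159). Prdx3, the mitochondrial peroxiredoxin (chromosome 19, 60864051 to 60874556), was at 380, 377 and 213 CPM in AEL, compared with 438, 376 and 373 CPM in NC. AEL replicates 1 and 2 fell within the NC range and only replicate 3 lay below it, and the change of -0.29 in log2 (SE 0.23) missed the threshold (edgeR adjusted p = 0.322). The 430 other tested genes of chromosome 19 had a median of -0.37.

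Ratios within a library do not depend on scaling. The count ratio of Prdx2 to Prdx1 was 8.36, 6.52 and 4.90 in AEL and 11.9, 11.3 and 12.0 in NC, a mean difference of -0.87 on the log2 scale. The exact two-sided permutation p was 0.1, the smallest that 3 against 3 libraries allow, and adjustment over the 3 ratios tested left it at 0.1.

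Of the glutathione peroxidases, Gpx4 protects membranes by reducing lipid hydroperoxides and is also a selenoprotein (chromosome 10, 80047166 to 80056439). It was at 20.2, 22.9 and 23.2 CPM in AEL, compared with 41.7, 38.8 and 36.8 CPM in NC, again without overlap. Its log2 fold change was -0.82 (SE 0.15, edgeR adjusted p = 0.00469), and its coefficient of variation of 7.54% was the lowest of the members in AEL. The ratio of Gpx1 to Gpx4 counts was 24.7, 35.9 and 15.4 in AEL and 61.4, 62.05 and 71.0 in NC, a log2 difference of -1.43 (exact two-sided permutation p = 0.1, the smallest possible, and 0.1 after adjustment).

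Of the superoxide dismutases, Sod2 passed the test and Sod1 did not. Sod1, the cytosolic copper and zinc enzyme (chromosome 16, 90220754 to 90226329), was at 460, 278 and 223 CPM in AEL, compared with 520, 475 and 428 CPM in NC. AEL replicate 1 lay within the NC range and the other AEL libraries below it. The change of -0.57 in log2 (SE 0.26) missed the threshold (edgeR adjusted p = 0.113); without AEL replicate 1 it was -0.85 and passed (adjusted p = 0.0057).

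Sod2, the mitochondrial manganese enzyme (chromosome 17, 13006846 to 13040063), was at 151, 116 and 185 CPM in AEL, compared with 98.9, 103 and 97.5 CPM in NC. All AEL libraries were above all NC libraries, and the log2 fold change was 0.60 (SE 0.18, edgeR adjusted p = 0.0276). This call ended without any single NC replicate (adjusted p = 0.0875, 0.0774 and 0.0896 without NC replicates 1, 2 and 3), while the log2 fold change stayed between 0.58 and 0.62 in those fits. The ratio of Sod2 to Sod1 counts was 0.329, 0.416 and 0.828 in AEL and 0.190, 0.217 and 0.227 in NC, a log2 difference of 1.20 (exact two-sided permutation p = 0.1, the smallest possible, and 0.1 after adjustment).

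**Figure D4:**
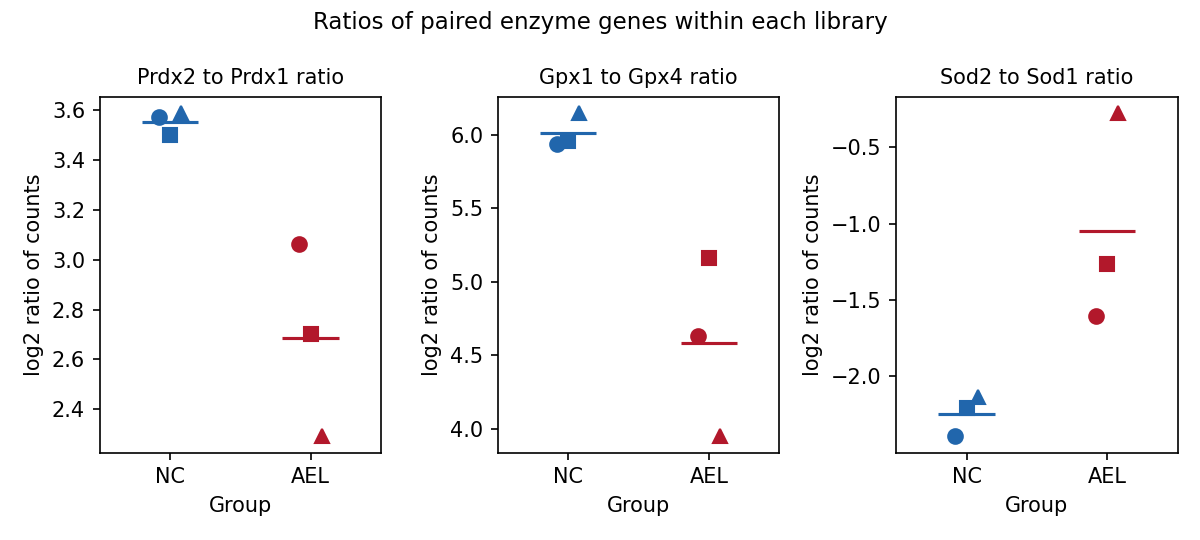
Log2 count ratios of Prdx2 to Prdx1, Gpx1 to Gpx4 and Sod2 to Sod1 in each library, with lines at group means and shapes for replicates (circle 1, square 2, triangle 3). The groups do not overlap in any of the 3 panels: the mean differences of AEL minus NC are -0.87, -1.43 and 1.20.

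Txnrd1 and Gclm serve the reductants rather than the peroxide itself, and each had 1 AEL library far from the rest. Txnrd1, cytosolic thioredoxin reductase and a selenoprotein (chromosome 10, 82833951 to 82897712), was at 84.1, 87.4 and 216 CPM in AEL, compared with 112, 129 and 122 CPM in NC. AEL replicates 1 and 2 lay below the NC range and replicate 3 above it. The change of 0.10 in log2 (SE 0.37, edgeR adjusted p = 0.842) thus averaged libraries on both sides of NC; without AEL replicate 3 it was -0.47 (adjusted p = 0.0172).

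Gclm, the regulatory subunit of the ligase that starts glutathione synthesis (chromosome 3, 122245557 to 122270732), was at 369, 682 and 278 CPM in AEL, compared with 337, 347 and 360 CPM in NC. AEL replicate 2 was far above the NC range, replicate 1 just above it and replicate 3 below it. The change of 0.35 in log2 (SE 0.31) missed the threshold (edgeR adjusted p = 0.381) and became -0.07 without AEL replicate 2. The 556 other tested genes of chromosome 3 had a median of 0.27. For Gclm, Gpx1 and Prdx3 this median shared the sign of the member's change. It was -0.15 on chromosome 17 (Sod2) and 0.11 on chromosome 16 (Sod1), opposite in sign to the member's change. On the chromosomes of the other members it lay between -0.07 and 0.02. What part of any member's difference goes with its chromosome was not tested.

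Gclc, the catalytic subunit of the same ligase, was named after its values were seen. It was at 122, 237 and 121 CPM in AEL, compared with 369, 328 and 389 CPM in NC, a fall of 2.26-fold (edgeR adjusted p = 0.0117). Gclm counts were 3.01, 2.87 and 2.29 times those of Gclc in AEL and 0.912, 1.06 and 0.927 times in NC, with no overlap between the groups and no test.

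Replicates of AEL differed more than those of NC for each of the 10 members, with coefficients of variation of 7.54% to 58.2% in AEL and 2.84% to 13.7% in NC. AEL replicate 3 was lowest of the 3 AEL libraries for Prdx2, Gpx1, Cat, Prdx3, Sod1 and Gclm and highest for Txnrd1, Sod2 and, by a small margin, Gpx4. AEL replicate 2 was highest for Prdx2, Gpx1, Cat, Prdx1 and Gclm, and it also had the highest sum of neutrophil markers in AEL, 1200 CPM against 19.9 and 127 CPM in the others.

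In each AEL library Prdx2 and Gpx1 kept more of their NC level than Slc4a1 and Alas2, markers of red cell maturation, a comparison that carries no test. Slc4a1, the band 3 anion exchanger of the red cell membrane, was at 8.87%, 1.32% and 0.111% of its NC mean in AEL replicates 1 to 3, and Alas2, the erythroid enzyme that starts heme synthesis, at 19.4%, 4.70% and 2.82%. Prdx2 was at 30.9%, 32.1% and 21.5% and Gpx1 at 19.8%, 32.5% and 14.2% of theirs. Tfrc, which encodes CD71, was at 54.4%, 32.2% and 42.8%. NC cells were stained for CD71 and Ter119 and sorted, so differences in these erythroid genes cannot be told apart from the sort. AEL replicate 1 was the highest AEL library for Slc4a1, Alas2 and Tfrc, whereas AEL replicate 2 was the highest for Prdx2, Gpx1 and Cat.

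**Figure D5:**
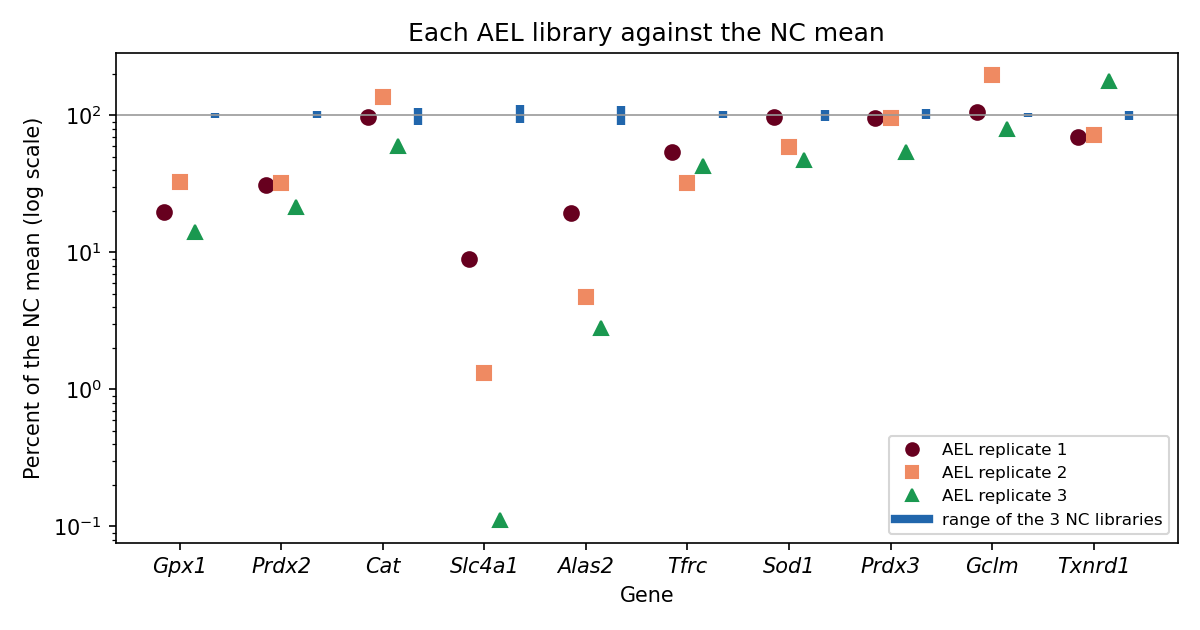
Level in each AEL library as a percent of the NC mean, on a log axis, for 7 of the enzyme genes and the erythroid genes Slc4a1, Alas2 and Tfrc. Blue bars give the range of the 3 NC libraries. Slc4a1 spreads from 0.111% to 8.87%, Prdx2 only from 21.5% to 32.1%, and Txnrd1 stands at 179% in AEL replicate 3.

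Levels can be compared between genes only per length, here as CPM per kilobase of each gene's principal GENCODE transcript (mean ± SD, n = 3 libraries a group). In NC the order was Gpx1 at 2355 ± 99.1, Prdx2 at 1453 ± 90.5, Sod1 at 740 ± 71.1 and Prdx3 at 268 ± 24.99, each separated from the next by more than both SDs. Below them came Prdx1 at 86.9 ± 4.59, Cat at 70.9 ± 9.72, Gclm at 62.3 ± 2.09, Gpx4 at 40.7 ± 2.58, Txnrd1 at 34.2 ± 2.48 and Sod2 at 17.0 ± 0.483, of which Cat and Gclm did not differ beyond their spread. In AEL the first places were level within their spread: Gpx1 at 521 ± 222, Sod1 at 500.1 ± 193 and Prdx2 at 409 ± 84.0. Prdx3 followed at 219 ± 64.8, then Gclm at 79.2 ± 37.9 and Cat at 69.0 ± 26.6, which did not differ beyond their spread either. Prdx1 at 44.3 ± 6.33, Txnrd1 at 36.6 ± 21.3, Sod2 at 25.7 ± 5.91 and Gpx4 at 23.0 ± 1.74 closed the AEL order, and each of these lay within the spread of its neighbour. Prdx2 and Gpx1 held 42.9%, 54.6% and 46.4% of the summed level of the 10 genes in AEL and 73.6%, 73.3% and 75.8% in NC. With all annotated exons in place of the principal transcript, Gpx1 was still first in both groups, but Sod1 stood at rank 4 in both groups instead of rank 2 in AEL and rank 3 in NC.

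Some counts may be shared with other loci. Annotated transcripts of other genes matched at least 200 bases at 95% identity or more for Prdx1 (2 genes), Gpx4 (2), Prdx2 (1) and Sod1 (1), up to 99.7% for Gpx4, and none of these copies is in the deposited table. How the counting treated reads that fit both is not given in the sources used here, so the absolute levels of these 4 genes, and the low level of Gpx4, are uncertain. Prdx2 exons also overlap those of Junb over 173 bases and Rnaseh2a over 177 bases on the opposite strand. Junb averaged 13.7 CPM in AEL versus 165 CPM in NC, and Rnaseh2a 107 and 154 CPM, beside 660 and 2342 CPM for Prdx2. Whether reads of these genes entered the Prdx2 counts was not tested.

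A further 93 genes were listed in 8 groups of antioxidant defense and related functions, with peroxisome, FOXO and NADPH oxidase genes among them. Of these, 89 were in the table and tested, and 17 were higher (19.1%) and 30 lower (33.7%). These shares are near the 23.9% and 29.0% of all genes tested, so the lists are described by their genes. Among 5 other peroxiredoxins, peroxidases and the copper chaperone of Sod1, 1 rose and 2 fell. Prdx6, which also reduces phospholipid hydroperoxides, rose 2.28-fold, from 204 ± 19.3 to 466 ± 198 CPM (SD, n = 3 a group, edgeR adjusted p = 0.0125), a call that ended without NC replicate 3 (0.055). Prdx5, a peroxiredoxin of mitochondria and peroxisomes, fell 4.35-fold (adjusted p = 0.00192). Ccs, the chaperone that loads copper into Sod1, was at 33.9, 23.1 and 15.01 CPM in AEL versus 42.7 to 45.6 CPM in NC, and its call (adjusted p = 0.0387) ended with library totals alone and without any single NC replicate or AEL replicate 2.

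The thioredoxin system showed 3 genes higher and 3 lower of 8, with a median log2 fold change of 0.47. The mitochondrial reductase Txnrd2 fell 3.21-fold, from 223 ± 8.95 to 69.4 ± 12.9 CPM, and Txn1, the cytosolic thioredoxin that recharges peroxiredoxins, fell 1.98-fold (SD, n = 3 a group; edgeR adjusted p = 0.000438 and 0.00154). Txnrd3, a reductase best known from testis, rose 4.55-fold to 41.5 ± 7.43 CPM (adjusted p = 0.000595), and Txndc5, a disulfide isomerase of the endoplasmic reticulum, rose 1.57-fold (adjusted p = 0.0109). The 3 thioredoxin reductases thus had log2 fold changes of 0.10 (Txnrd1), -1.68 (Txnrd2) and 2.19 (Txnrd3). The number of genes higher was 5 with library totals alone and ran from 2 to 5 without 1 library, and the number lower was 2 without any 1 library.

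Of 20 glutathione genes 10 fell (50%) and 2 rose (10%), against 29.0% and 23.9% of all genes tested. Their median log2 fold change was -0.86. Of those that fell, Gsta4, Gstm1, Mgst2 and Mgst1 averaged only 0.13, 1.59, 2.03 and 2.54 CPM in AEL. Mgst3, a membrane-bound glutathione transferase and peroxidase, fell 10.1-fold, from 388 ± 21.2 to 38.7 ± 25.6 CPM (SD, n = 3 a group, edgeR adjusted p = 0.00163), and Glrx5, a mitochondrial glutaredoxin of iron-sulfur cluster assembly, fell 2.81-fold (adjusted p = 0.000182). Ggct and Glrx2 were called higher (2.97-fold and 1.37-fold), but the first call ended without NC replicate 1 or 3 and the second without any single NC replicate. Leaving out each NC replicate in turn gave 8 genes lower, while the higher count ran from 0 to 3 with 1 library left out.

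Of 12 genes that supply NADPH 4 fell and 2 rose. Idh1, the cytosolic isocitrate dehydrogenase, fell 5.12-fold (edgeR adjusted p = 0.000727) and Pgd, an oxidative enzyme of the pentose phosphate pathway, fell 1.83-fold (adjusted p = 0.00123). Nadk, which makes NADP from NAD, rose 1.42-fold from 130.1 ± 14.0 to 185 ± 6.07 CPM (SD, n = 3 a group, adjusted p = 0.0103). Nnt, the mitochondrial transhydrogenase, was at 53.1, 33.4 and 18.8 CPM in AEL versus 13.9 to 19.6 CPM in NC, a call (adjusted p = 0.0475) that ended under several settings, among them each NC replicate left out. The number higher was 4 with library totals alone and ran from 1 to 4 without 1 library.

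Of 13 genes of the NRF2 axis 3 rose and 3 fell. Hmox1, heme oxygenase, was at 0.563, 3.04 and 1.74 CPM in AEL, compared with 824, 882 and 973 CPM in NC (log2 fold change -8.95, SE 0.48, edgeR adjusted p = 9.8e-05); macrophage markers, where this gene is also abundant, fell in the same libraries, and their part was not tested. Osgin1 was at 0, 0.760 and 0.183 CPM in AEL versus 11.2 to 13.8 CPM in NC. Nqo1, a quinone reductase and NRF2 target, rose 1.73-fold, from 33.1 ± 0.63 to 57.2 ± 8.53 CPM (SD, n = 3 a group, adjusted p = 0.00545). Keap1, which targets NRF2 for degradation, rose 1.76-fold (adjusted p = 0.0288), a call lost without any single NC replicate, which left 1 gene of the group higher. Nfe2l2, which encodes NRF2, was at 94.4 CPM in AEL versus 112 CPM in NC (adjusted p = 0.165) and was named after its values were seen.

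Gpx1, Gpx4 and Txnrd1 contain selenocysteine, and of 12 genes for making selenoproteins or encoding others of them, 4 rose and 2 fell. The other selenoproteins differed in direction: Msrb1, a methionine sulfoxide reductase, fell 2.75-fold (edgeR adjusted p = 0.000437) and Selk fell 3.29-fold (adjusted p = 0.000946), while Vimp and Selt rose 1.96-fold and 1.35-fold (adjusted p = 0.0111 and 0.0339). The number called higher ran from 0 to 1 with an NC replicate left out, and the Selt call was lost in each of those fits. The Vimp call was lost without NC replicate 1 (adjusted p = 0.0508).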

How the data were processed

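Whole-number counts per gene were deposited by the authors in 1 table whose name says CPM; the values are not scaled to a common total. The build mm10 and edgeR 3.32.1 are named without a role, per the submitters' processing notes; how reads were aligned and counted, and whether strand was used, is not given in these sources. For count data edgeR 4.0.16 in R 4.3.3 was used on the whole table, with TMM scaling, no covariate beside the group, a filter that kept the 12427 of 13007 genes reaching 1 CPM in 3 or more libraries, quasi-likelihood test, Benjamini-Hochberg adjustment at 0.05. The SE is the absolute log2 fold change over the square root of the F statistic. CPM values use TMM-scaled totals; 3 counts equal 0.302 to 0.367 CPM of the unscaled totals, for counting error only. Alternatives used limma 3.58.1 and DESeq2 1.42.0, other scalings and filters, a robust fit, a replicate block and leaving out each library.

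Genes, lists and the naming rule (all 10 members; per pathway list up to 2 genes higher and 2 lower with the smallest adjusted p, provided that 1 group averaged at least 10 CPM) were chosen with earlier results of these data known; some genes that the rule names are not reported here. Lengths, positions and overlaps came from GENCODE M21 (GRCm38, the assembly that mm10 names), copies from BLAST 2.17.0 against its transcripts, promoters from RefSeq. Python 3.11.15 did the rest.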

Additional observations from a re-analysis of the deposited data

How the results depend on the processing

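Prdx2, Gpx1, Prdx1 and Gpx4 stayed lower and past the threshold in all 16 alternative fits (10 settings and 6 fits without 1 library), so the number of members lower was 4, or 5 without AEL replicate 1 (with Sod1) and without AEL replicate 3 (with Txnrd1). Of 160 alternative values for the members, 145 kept direction and side of the threshold. The number of members higher was 0 with the replicate block and 0 to 1 without 1 library; this is the Sod2 call. Deviations from the group means correlated at 0.0824, -0.0167 and -0.0314 between same-numbered libraries, and at -0.0755 to 0.0904 between differently numbered ones. With 3 libraries a group this cannot decide whether the numbers pair samples, and the labels do not say. The replicate block, under which Sod2 was at 0.57 (edgeR adjusted p = 0.0603), changed no other member's call. Among pathway genes it also ended calls, among them those of Glrx2, Nnt, Pex14 and Selt. Cat became 0.14 with library totals alone, 0.03 and 0.25 without AEL replicates 1 and 3, and 0.06 without NC replicate 2, never past the threshold, and ran from -0.31 to 0.25 without 1 library. Txnrd1 became -0.065 with quantile normalization, -0.048 and -0.042 with limma at pseudocounts of 1 and 5, -0.053 with the replicate block and -0.47 without AEL replicate 3, and reached 0.41 without AEL replicate 1. Gclm became -0.070 without AEL replicate 2 and 0.63 without AEL replicate 3. The cause of these changes was not tested.

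Over all genes, 6563 were called, and 4612 to 7296 without 1 library (1915 to 3375 higher, 2662 to 3921 lower). Scaling shifted the balance: higher genes made up 45.2% of calls here, 55.2% by library totals and 55.4% by quantiles, where the median gene stood at -0.05, 0.14 and 0.11 in log2. The 3 ratios kept their direction without any 1 library (Prdx2 to Prdx1 -1.06 to -0.67, Gpx1 to Gpx4 -1.73 to -1.12, Sod2 to Sod1 0.81 to 1.48), a design too small to pass 0.05. Of the alternative values for Gclc and the pathway genes of the naming rule, 440 kept direction and side, 39 lost the call and 0 changed sign; these were added after seeing the data. Members had 179 to 22655 counts in a library, so counting error was relatively largest for Gpx4.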

Other observations

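The phagocyte NADPH oxidase, which makes superoxide, had 4 of 6 genes lower and 0 higher (all genes tested: 29.0% and 23.9%). Its catalytic subunit Cybb measured 1.80, 45.2 and 9.24 CPM in AEL, compared with 183, 221 and 267 CPM in NC, and the cytosolic subunit Ncf4 had a log2 fold change of -3.51 (edgeR adjusted p = 0.012). Cyba and Rac2, which are not limited to phagocytes, were at 154 and 161 CPM and at 336 and 322 CPM in AEL and NC. The number lower was 2 without AEL replicate 3, NC replicate 2 or NC replicate 3, and 3 without NC replicate 1. Neutrophil and monocyte markers were lower in the same libraries, and AEL replicate 2, with the most neutrophil marker counts in AEL, was also the highest for Cybb; their part was not tested.

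Among 13 genes of peroxisomes, where catalase sits in nucleated cells, and the FOXO factors that are known to drive catalase, 2 rose and 2 fell. Pex14, of peroxisome import, was called 1.48-fold higher (edgeR adjusted p = 0.0236), and this call was lost whenever 1 NC replicate was left out. Foxo4 fell 1.78-fold (adjusted p = 0.0127, and 0.0537 without NC replicate 3). Foxo3 stood at 241 CPM in AEL versus 274 CPM in NC (adjusted p = 0.263), named after its values were seen.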
